A study of Mus musculus with 12 samples.

Results

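The nuclear genes of the mitochondrial respiratory chain and of ATP synthase were followed, complex by complex, in LT-HSCs, the long-term haematopoietic stem cells of the bone marrow, which sustain blood formation. Genes were taken by symbol: the Nduf subunit genes of complex I, Sdha to Sdhd of complex II, the Uqcr genes and Cyc1 of complex III, Cycs for cytochrome c, the Cox4 to Cox8 genes of complex IV and the Atp5 genes of complex V. Of 23472 symbols, 85 matched, and 79 of these reached at least 1 CPM, the count scaled to library size, in at least 6 of the 12 libraries. They comprised 35 genes of complex I, 4 of complex II, 9 of complex III, Cycs, 13 of complex IV and 17 carrying an Atp5 symbol. All 79 were among the 13184 genes tested.

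The study compared poly-A RNA of LT-HSCs from C57BL/6 mice in 2 groups of 6 libraries: cre-negative animals (wt) and cre-positive animals (labelled Jak1 KO). Both had received 4 doses of poly(I:C), a double-stranded RNA mimic that induces interferon, 4 to 6 weeks before bone marrow was taken. Because cre and the deletion came together, an effect of cre and one of the deletion cannot be told apart. Library names fell into 2 series called VD (wt 1 to 3, Jak1 KO 1 to 3) and ZL (wt 4 to 6, Jak1 KO 4 to 6), and what these letters stand for is not stated. Neither the promoter that drives cre, nor whether each library came from 1 animal or from a pool, is given in the sources used here. P-values therefore measure only the spread between these libraries, which may be technical.

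Complex I passes electrons from NADH to ubiquinone, complex II passes them from succinate, complex III hands them to the small soluble carrier cytochrome c, and complex IV delivers them to oxygen. Complexes I, III and IV pump protons while doing so, and complex V, the ATP synthase, uses the returning protons to make ATP. All but complex II combine nuclear with mitochondrially encoded subunits, and the mitochondrial genes were not analysed here. LT-HSCs are known for low mitochondrial respiration and reliance on glycolysis while quiescent. Transcript levels do not measure respiration, and in bulk RNA fewer cells of a type and less RNA per cell cannot be told apart.

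Some properties of the libraries bear on every result. Jak1 itself was not lower in the libraries labelled Jak1 KO: its level was 373.7 ± 45.4 CPM (SD, n = 6) in wt and 422.5 ± 161 CPM (n = 6) in Jak1 KO. Which exons were deleted is not given in the sources used here, and gene-level counts may include exons outside them, so this is no check of the deletion. The interferon pathway gene Irf9 (123 ± 36.6 against 47.1 ± 7.43 CPM) was lower in every library labelled Jak1 KO than in every wt library. Depth was 8989965 to 16798427 counts in VD and 13804931 to 28701855 in ZL. Rn45s, which encodes ribosomal RNA, held 14.8% to 22.6% of VD counts and 0.511% to 0.95% of ZL counts. Summed levels of 7 granulocyte markers (6 of them tested) were 446 to 1300 CPM in VD and 7.3 to 14.3 CPM in ZL. Those of 10 stem cell markers were 2720 to 3510 and 2130 to 4780 CPM. The 6 erythroid markers (4 of them tested) summed to 23.1 to 53.5 CPM in VD and 37.9 to 61.3 CPM in ZL. Among them, Hba-a1 had 0 counts throughout. The library Jak1 KO 4 stood apart: relative to the mean of ZL its log2 CPM was lower for genes with longer exons (Spearman -0.61 across genes), against -0.32 to 0.53 in the other 11 libraries. It also had the highest summed levels of 5 monocyte or macrophage markers (977 CPM, against 350 to 518 in the wt libraries of ZL) and of 5 B cell markers (142 against 42.3 to 68.4 CPM), and the lowest of the 10 stem cell markers (2130 CPM). Their part in its respiratory chain levels was not tested. Results that rest on it are given with and without it.

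Levels were first compared between genes per kilobase of exon (CPM per kb, mean of 12 libraries). The median was 91.9 CPM per kb for complex I, 149 for complex II, 107.7 for complex III, 121 for complex IV and 130.6 for complex V. Atp5b, the catalytic beta subunit of ATP synthase, was the highest of all at 708.5 CPM per kb (365 to 1264 across libraries), followed by Atp5a1, the alpha subunit (435), Atp5g3 (426) and Cox4i1 (413). The ranges of these 3 across libraries overlapped. Within complex I the highest was Ndufa4 (288), an accessory protein that has also been assigned to complex IV, and within complex III it was Uqcrh (198), the hinge protein. Sdhd (172), Sdha (160.3) and Sdhb (137) of complex II had overlapping ranges, and Sdhc, the other membrane anchor, was the lowest of the 4 at 35.9. The lowest members were Cycs (2.05 CPM per kb), Cox4i2 (2.26), Atp5g2 (5.07), Atp5g1 (5.58) and Ndufb4 (6.28).

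Reads of genes with near-identical copies may have been split or lost. At least 1 annotated pseudogene matched 21 of the 79 members over 150 bases at 95% identity or more. There were 8 such copies for Atp5l, 4 for Atp5h, 3 each for Cycs, Cox7c and Uqcrb, and 2 for Atp5g2. Of the 10 members under 30 CPM per kb, 7 had a copy. Their levels are uncertain for this reason, and that of Atp5g1 is also divided by a long annotated 3′ exon. Exons of 22 members overlapped another protein-coding gene, such as Atp5j with Gabpa, and strand was not stated for the counting.

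Where a subunit has tissue-specific isoforms, 1 of them took most of the counts. Cox4i1, the general isoform of subunit 4, took at least 98.6% of the counts of the Cox4i1 and Cox4i2 pair in every library. Cox4i2, its hypoxia-associated partner, was at 2.1, 0 and 0.699 CPM in the wt and 1.44, 0 and 2.53 CPM in the Jak1 KO libraries of VD, on the scale of all 12 libraries, and passed the minimum in 9 libraries. The muscle isoforms were close to absent: Cox6a2 had at most 4 counts, Cox7a1 at most 12 and Cox8b at most 7 in any library, and none of them reached 1 CPM. The testis isoforms differed, with Cox6b2 taking 12% to 28% of the Cox6b counts while Cox7b2 and Cox8c had at most 9 and 7 counts. Among the 3 genes for the c subunit of ATP synthase, Atp5g3 took 86.4% to 92.2% of the counts, Atp5g1 7.3% to 10.4% and Atp5g2 0.478% to 3.2%. Ndufs5, a small accessory subunit of complex I, had 0 counts in all 6 VD libraries and 19 to 32 in the ZL libraries, and was left out by the CPM minimum together with these 5 Cox genes.

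Promoter windows, 250 bases before to 50 bases after an annotated start, were available from RefSeq (GRCm38.p6) for 64 of the members, 70 windows in all. The members without one included Cyc1, Cox4i1, Atp5a1, Sdhc and Uqcrb. NRF1 is a transcription factor known for its sites in respiratory chain promoters, and its core, GCATGCGC on either strand, was in 15.7% of the members' windows and in 2.71% of all 32851 windows. The core of the ETS factor GABP, CCGGAAG, was in 22.9% against 8.86%, that of YY1, AANATGGC, in 25.7% against 6.05%, the cAMP response element, TGACGTCA, in 7.14% against 1.79%, and the GC box, GGGCGG, in 38.6% against 35.7%. The YY1 core was in 12 of 31 complex I genes with a window and in 1 of 10 of complex IV. Motifs were searched on both strands and without regard to overlaps between them, and a match describes letters, not a bound site. The 11 members with an NRF1 core are shown as 30 bases around it, 5′ to 3′ on the gene's strand, since they spread over all 5 complexes and cytochrome c. Capitals mark the core, and matches on both strands run together.
Uqcrc1 (chr9:108936668-108936697, plus strand): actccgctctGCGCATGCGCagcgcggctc
Atp5k (chr5:108434429-108434458, minus strand): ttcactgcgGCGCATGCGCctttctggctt
Sdhb (chr4:140961206-140961235, plus strand): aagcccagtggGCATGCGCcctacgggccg
Ndufa11 (chr17:56717693-56717722, plus strand): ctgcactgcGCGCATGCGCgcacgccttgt
Cox6a1 (chr5:115349100-115349129, minus strand): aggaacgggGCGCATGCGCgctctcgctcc
Cycs (chr6:50566611-50566640, minus strand): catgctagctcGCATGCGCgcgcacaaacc
Uqcr11 (chr10:80406807-80406836, minus strand): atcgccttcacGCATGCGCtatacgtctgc
Ndufa8 (chr2:36049328-36049357, minus strand): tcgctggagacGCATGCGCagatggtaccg
Atp5l (chr9:44920963-44920992, minus strand): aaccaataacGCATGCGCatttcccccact
Ndufa6 (chr15:82354356-82354385, minus strand): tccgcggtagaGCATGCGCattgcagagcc
Atp5g2 (chr15:102671069-102671098, minus strand): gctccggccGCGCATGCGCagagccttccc
The core matched on both strands in Uqcrc1, Atp5k, Ndufa11, Cox6a1 and Atp5g2. Its first base lay between position -240 (Atp5l) and position 33 (Uqcrc1) relative to the annotated start.

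Over all 12 libraries, no respiratory chain gene passed the test between genotypes. With a term for name series, 0 of 79 genes passed (edgeR quasi-likelihood test, adjusted p under 0.05), where 0.44% of all genes passed, and 0 were under 0.05 before adjustment, where 5.06% of all genes were. DESeq2's Wald test and limma-voom with sample quality weights also called 0, the latter with 12 at an unadjusted p under 0.05. Fold changes (Jak1 KO over wt, log2) lay above 0 for 59 genes and below 0 for 20, with a median of 0.09 against -0.01 for all genes. The medians were 0.10 for complex I, 0.07 for complex II, 0.04 for complex III, 0.02 for complex IV and 0.10 for complex V. Without Jak1 KO 4 they were -0.10, -0.09, -0.15, -0.19 and -0.10, so the sign of all 5 turned without that library. With limma-voom's weights the median over the members was -0.15, with 74 below 0. The 5 smallest p-values belonged to Cox7a2l, a factor that joins complexes III and IV (0.32, SE 0.23), Uqcrfs1, the Rieske iron-sulfur protein (0.38, SE 0.27), Atp5sl (0.22, SE 0.18), Sdha, the flavoprotein of succinate dehydrogenase (-0.13, SE 0.12), and Ndufb4 (0.28, SE 0.30), and none passed.

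With all libraries included, fold changes lay mostly on opposite sides of 0 in the 2 series. Within VD the mean log2 CPM of each complex lay below 0, relative to the wt mean, in all 3 Jak1 KO libraries, from -0.04 (complex I, Jak1 KO 2) to -0.35 (complex III, Jak1 KO 3). The 3 wt libraries lay between -0.06 and 0.06 for complexes I, II, III and V. The groups did not overlap for complexes III and V. They overlapped for complex II, where Jak1 KO 2 lay at -0.0542 and wt 1 at -0.0629, and for complex IV, where wt 2 lay at -0.14, between Jak1 KO 1 and Jak1 KO 2. For complex I Jak1 KO 2 (-0.0423) and wt 3 (-0.0419) were nearly equal. The scarce Cox4i2, 1 of the 13 genes averaged, had 0 counts in wt 2 and in Jak1 KO 2. Within ZL the values were led by single libraries: Jak1 KO 4 lay 0.71 to 1.07 above the wt mean, Jak1 KO 5 0.06 to 0.35 above it and Jak1 KO 6 between -0.48 and -0.15, around wt libraries that themselves ran from -0.34 to 0.36.

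**Figure D1:**
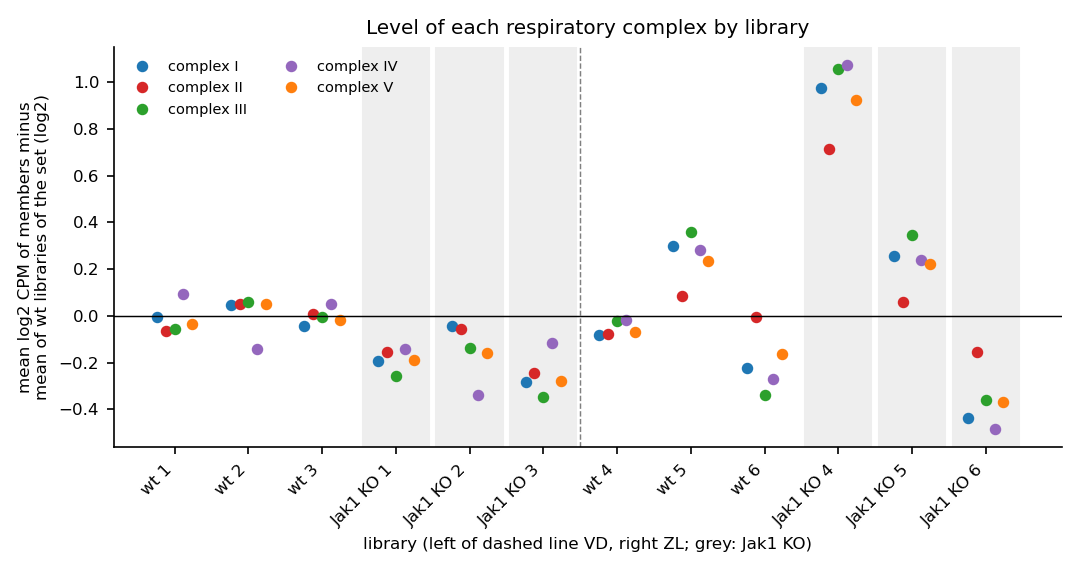
Mean log2 CPM over the members of each complex in every library, minus the mean of the 3 wt libraries of the same series, each series scaled on its own. Each point is 1 complex in 1 library, grey bands mark Jak1 KO, and the dashed line separates VD from ZL. Jak1 KO 1 to 3 sit below 0 for all 5 complexes, and Jak1 KO 4 sits 0.71 to 1.07 above.

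In VD, fitted alone, 72 of 79 fold changes were below 0, against 49.1% of all genes, and the median was -0.17 against 0.01. Only Cyc1 passed in edgeR, as lower, where 0.728% of all genes were called lower. DESeq2's Wald test called 5 members, all lower: Cyc1, Cox5a, Atp5g3, Uqcrc1 and Atp5a1. Limma-voom called 8, all lower, with these and Atp5k and Ndufb10 among them. On simulated counts, with 1 spread per gene shared by both series, 21.7% of DESeq2's calls in VD were false. The share was 3.53% for edgeR and 3.57% for limma-voom. The real spread differed between the series, so these shares do not show how many calls in the real VD libraries were false. Beside Cyc1, 19 genes had an unadjusted p under 0.05 in edgeR. Thus 20 of 79 lay lower by that measure (7.17% of all genes) and 0 higher (6.42%). For 24 of the 79, all 3 Jak1 KO libraries lay below all 3 wt libraries, against 10% of all genes, and for 1, Atp5sl, all 3 lay above, against 8.82%. The spread was small in this series: the median SD of log2 CPM among members was 0.11 in wt and 0.18 in Jak1 KO. For all genes tested it was 0.17 and 0.20. The part of the members' lower spread in the counts above was not tested. Summed levels of the 5 megakaryocyte markers, all tested, were 773 to 1040 CPM in the wt and 431 to 457 CPM in the Jak1 KO libraries of VD, and those of 6 erythroid markers 43.1 to 53.5 and 23.1 to 42.3 CPM. The megakaryocyte markers were also lower without overlap in ZL (896 to 982 CPM in wt, 381 to 721 CPM in Jak1 KO, the highest in Jak1 KO 4). The erythroid markers, 4 of them tested, overlapped in ZL (48.1 to 61.3 CPM in wt, 37.9 to 54.3 CPM in Jak1 KO). Most respiratory chain fold changes lay above 0 in ZL with Jak1 KO 4 included. Without it, the mean of Jak1 KO 5 and 6 lay below the wt mean for 62 members and above it for 17. The part of the megakaryocyte and erythroid markers in the respiratory chain levels was not tested.

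Complex III had the most negative median of the 5 complexes, but the order was not firm. Without wt 2 the median was -0.17 for complex III and -0.21 for complex IV. By mean log2 CPM, Jak1 KO minus wt was -0.25 for complex III, -0.21 for complex V and -0.20 for complex IV. Cyc1 (chr15:76343523-76346260 in GRCm38) encodes cytochrome c1, the haem protein of complex III that hands electrons to cytochrome c. It stood at 115.5, 132 and 130.4 CPM in wt 1 to 3 and at 88.3, 103 and 82.4 CPM in Jak1 KO 1 to 3. Every Jak1 KO library lay below every wt library. The means were 126 ± 8.99 CPM and 91.4 ± 10.8 CPM (SD, n = 3 each), a log2 fold change of -0.46 (SE 0.11, edgeR adjusted p = 0.0493), or 0.725-fold. This call was narrow: leaving out any 1 of the 6 libraries moved the adjusted p to 0.205 at most, and it was kept only without Jak1 KO 2 (0.0078). Scaling by DESeq2's size factors gave 0.0546. Uqcrc1, a core protein of complex III, stood at 196, 195 and 199 CPM in wt and 158.5, 173 and 150 CPM in Jak1 KO, with no overlap (-0.29 on the log2 scale, SE 0.08, adjusted p = 0.109 by edgeR). Its partner Uqcrc2 (-0.16) and the small subunit Uqcrq (-0.40) also showed no overlap. Uqcrfs1 was the exception in the complex, at 69.8, 62.4 and 64.9 CPM in wt and 66.8, 69.5 and 67.1 CPM in Jak1 KO (log2 fold change 0.04, SE 0.11). Thus the 2 nuclear subunits of complex III that carry electrons had values on either side of 0 in the same libraries. Over the 9 genes the median was -0.24, with 4 non-overlapping. Cycs, cytochrome c itself, had too few counts to place: 4.66, 6.62 and 2.59 CPM against 3.24, 3.72 and 1.95 CPM, overlapping between groups (log2 fold change -0.64, SE 0.50).

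Complex IV followed, with a median of -0.23 over 13 genes and 6 without overlap. Cox5a, a nuclear subunit facing the matrix, stood at 75.9, 83.5 and 78.8 CPM in wt and 54.4, 64.8 and 56.6 CPM in Jak1 KO (-0.44 on the log2 scale, SE 0.11, adjusted p = 0.0792 by edgeR). The groups did not overlap, and the gene missed the threshold. The other non-overlapping genes were Cox5b (-0.42), Cox6b1 (-0.27), Cox6c (-0.42), Cox7b (-0.36) and Cox8a (-0.25). Cox4i1, the most abundant of them, overlapped through Jak1 KO 2: 198, 218 and 198 CPM in wt, 174, 205 and 169 CPM in Jak1 KO. Cox7a2l (0.04, SE 0.09) and the scarce Cox4i2 (0.52, SE 1.14) were the 2 genes above 0.

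For complex V the median was -0.17 over 17 genes, 6 of them non-overlapping and lower. Both subunits of the catalytic head were among these: Atp5b stood at 828, 941 and 817 CPM in wt and 724, 796 and 663 CPM in Jak1 KO, and Atp5a1 at 807.5, 802 and 788 and 693, 714 and 674.5 CPM. Their log2 fold changes were -0.24 (SE 0.09) and -0.20 (SE 0.08), and neither passed in edgeR. Atp5a1 passed with DESeq2's Wald test (adjusted p = 0.0435) and with limma-voom (adjusted p = 0.0352). Atp5g3, the main source of the c subunit whose ring turns in the membrane, stood at 182, 179 and 196 CPM in wt and 149, 159.9 and 124 CPM in Jak1 KO (-0.36 on the log2 scale, SE 0.10, adjusted p = 0.0931 by edgeR). Atp5k, the small subunit e of the membrane part, had the most negative value among the 17 (log2 fold change -0.61, SE 0.18), from 26.4, 26.5 and 24 CPM to 14.8, 18.1 and 17.7 CPM. Atp5c1, the central stalk gamma subunit (-0.13), and Atp5j of the peripheral stalk (-0.17) completed the 6. Atp5sl, which lay above wt in all 3 Jak1 KO libraries (36.5, 40.1 and 35.5 against 43.5, 43.6 and 40.9 CPM, log2 fold change 0.19, SE 0.14), is named for its likeness to Atp5s and is not a subunit of the enzyme.

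Complexes I and II had the medians nearest 0 (-0.149 and -0.148), close to that of complex V (-0.169). In complex I, 33 of 35 fold changes were below 0 with a median of -0.15, and 7 genes had no overlap. The 7 nuclear core subunits, among them those that hold the flavin and iron-sulfur centres, had a median of -0.10 and the 28 accessory subunits -0.15. Ndufb10, an accessory subunit of the membrane arm, had the smallest p of the complex, at 78.9, 81.9 and 72.9 CPM in wt and 49.2, 61.1 and 64.8 CPM in Jak1 KO (-0.42 on the log2 scale, SE 0.12, adjusted p = 0.133 by edgeR). The values of the core subunits were spread out: Ndufs8, an iron-sulfur protein, and Ndufv1, which binds NADH, did not overlap (-0.39 and -0.22). Ndufs1, the largest, stood at 81.9, 78 and 80.4 CPM in wt and 74.2, 99.1 and 71.9 CPM in Jak1 KO (0.03, SE 0.12). In complex II only Sdhd, a membrane anchor, was free of overlap, with 108, 113 and 109 CPM in wt and 92.2, 96.2 and 92.2 CPM in Jak1 KO (-0.23, SE 0.09). Sdha (-0.07, SE 0.09), Sdhb, the iron-sulfur subunit (-0.22, SE 0.12), and Sdhc (-0.06, SE 0.11) overlapped. Cox5a, Atp5g3, Uqcrc1, Atp5k and Ndufb10, next to Cyc1 by p, were chosen after their values were seen, as were the other genes named for not overlapping and the classes of core and accessory subunits.

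**Figure D2:**
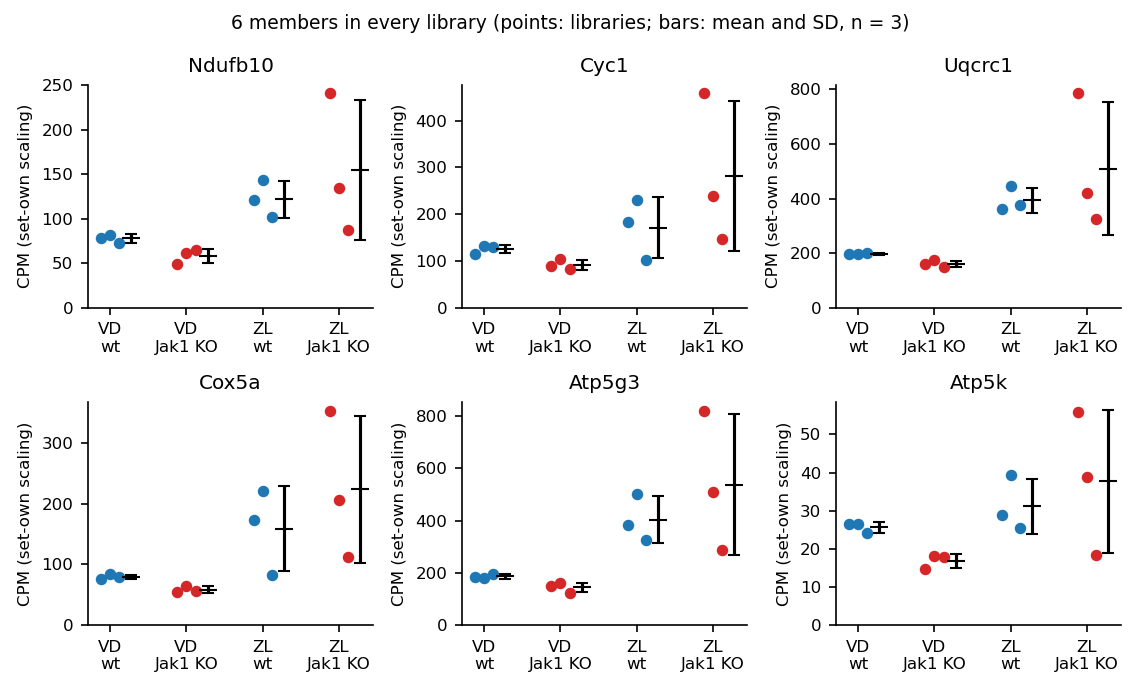
CPM of Ndufb10, Cyc1, Uqcrc1, Cox5a, Atp5g3 and Atp5k, the 6 members with the smallest p in VD, in every library, each series scaled on its own. Points are libraries (blue wt, red Jak1 KO) and bars give the mean and SD of 3 libraries. In VD the red points lie below the blue ones for all 6 genes, and in ZL the highest red point, Jak1 KO 4, is the highest of the series.

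In ZL, fitted alone, 77 of 79 fold changes were above 0 and the median was 0.38, against -0.00 for all genes, but none passed. No gene of the whole table passed in this series (edgeR, 0% of all genes), 0 members had an unadjusted p under 0.05 (1.6% of all genes), and no member was free of overlap, where 2.07% of all genes lay above and 2.56% below in every Jak1 KO library. DESeq2 and limma-voom called 0 members as well. The complexes were alike, with medians of 0.38, 0.41, 0.37, 0.38 and 0.36 from I to V. Jak1 KO 4 had the highest level of the 6 libraries for 77 of 79 members and Jak1 KO 6 the lowest for 67, so the 2 ends of the range lay in the same group. Without Jak1 KO 4 the medians were -0.06, -0.04, -0.06, -0.10 and -0.04, and the mean of Jak1 KO 5 and 6 lay below the wt mean for 62 members and above it for 17. In that comparison 1 member lay below wt without overlap (4.95% of all genes) and 0 above (4.03%).

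Cyc1 shared the high level of Jak1 KO 4 but not the rest of this order, with 183, 230.0 and 101.5 CPM in wt 4 to 6 and 458.5, 239.7 and 147 CPM in Jak1 KO 4 to 6 (log2 fold change 0.72, SE 0.47). Wt 6 was the lowest of the series for this gene, as it was for Cox5a (173.5, 221 and 82.5 CPM in wt, 354, 206 and 113 CPM in Jak1 KO) and for Uqcrfs1 (153, 206 and 69.1 and 370.1, 215 and 135 CPM). These 3 genes had wt 6 below wt 4 by more than their complexes did. The 2 members with fold changes below 0 were Ndufs1 and Sdha, among the members with the longest exons. Ndufs1 stood at 194, 209.7 and 206 CPM in wt and 125, 186 and 203 CPM in Jak1 KO, and Sdha at 651, 704 and 744 and 525, 675 and 697.5 CPM. For both, Jak1 KO 4 was the lowest of the 6 libraries. Sdhc, in contrast, stood at 297, 122 and 134 CPM in Jak1 KO 4 to 6 against 132, 119.8 and 152 CPM in wt 4 to 6. Atp5b stood at 1722, 2195 and 1846 CPM in wt and 2610, 1987 and 1602 CPM in Jak1 KO. Atp5a1 had the value nearest 0 of the Atp5 genes (0.07, SE 0.22), followed by Atp5g2 and Atp5b (0.11).

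The difference between the series in the genotype effect was tested as an interaction, and 0 of 79 members passed (edgeR, 0% of all genes). The median difference, ZL minus VD, was 0.60 against -0.01 for all genes. A single member, Cyc1, was under 0.05 before adjustment, as were 1.38% of all genes, with a difference of 1.21 (SE 0.51, edgeR adjusted p = 0.975). Next by p were Atp5k (0.91, SE 0.47) and Cycs (1.01, SE 0.53). Without Jak1 KO 4 the difference was 0.65 for Cyc1 and 0.51 for Atp5k, and 0 members passed. The medians of the 5 complexes in ZL then lay between -0.10 and -0.04, below 0 as in VD. The opposite signs seen in VD and ZL with Jak1 KO 4 included are therefore not shown to differ beyond the spread of the libraries.

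**Figure D3:**
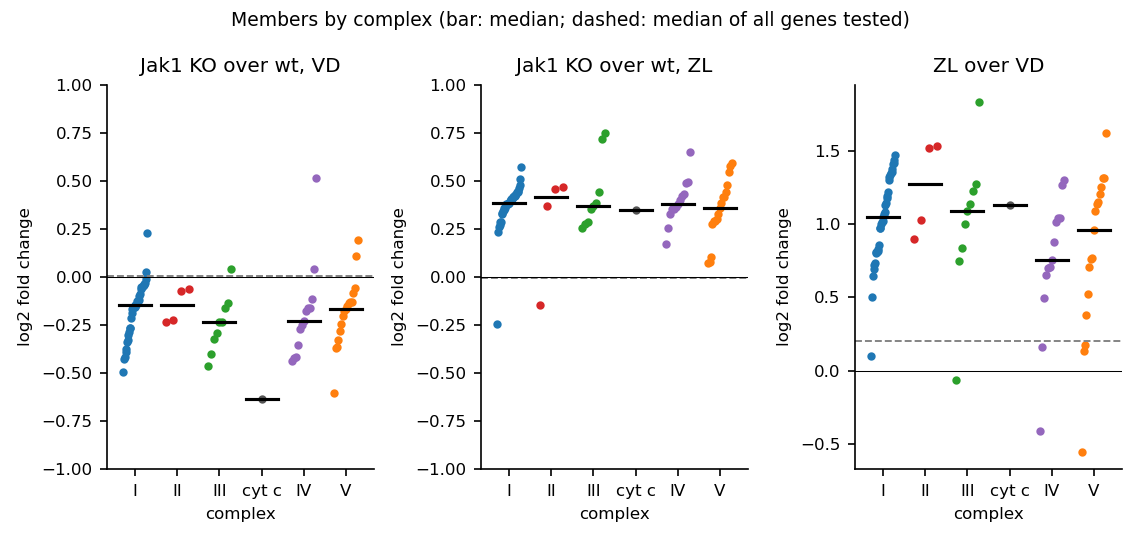
Log2 fold changes of the 79 members by complex in 3 comparisons. Points are genes in order of value, bars are medians, and the dashed line is the median of all genes tested. The medians of the 5 complexes lie between -0.24 and -0.15 for VD, between 0.36 and 0.41 for ZL, and between 0.76 and 1.27 for ZL over VD.

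Exon length moved with these values. Members are short, with a median exon length of 865 nt against 3041 nt for all genes, and 69 of the 79 fell in the shortest of 4 equal length classes of genes (up to 1902 nt). Complex IV had the shortest genes (median 656 nt) and complex II the longest (2065.5 nt). In ZL the whole shortest class had a median fold change of 0.39, with 86% of its genes above 0, and the longest class -0.20. In VD the shortest class had a median of -0.05, with 56.9% of its genes below 0, and the longest 0.05. Thus in ZL the members (0.38) lay at the level of other short genes, and in VD (-0.17) they lay lower than the short genes as a whole. After an offset was fitted to remove the exon length trend of every library, the members' median was -0.03 in ZL and -0.10 in VD, 65 of 79 were below 0 in VD, 18 had no overlap and none passed. Cyc1 then had a log2 fold change of -0.41 in VD (SE 0.10, edgeR adjusted p = 0.0732). Over all libraries the offset turned the median to -0.06.

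**Figure D4:**
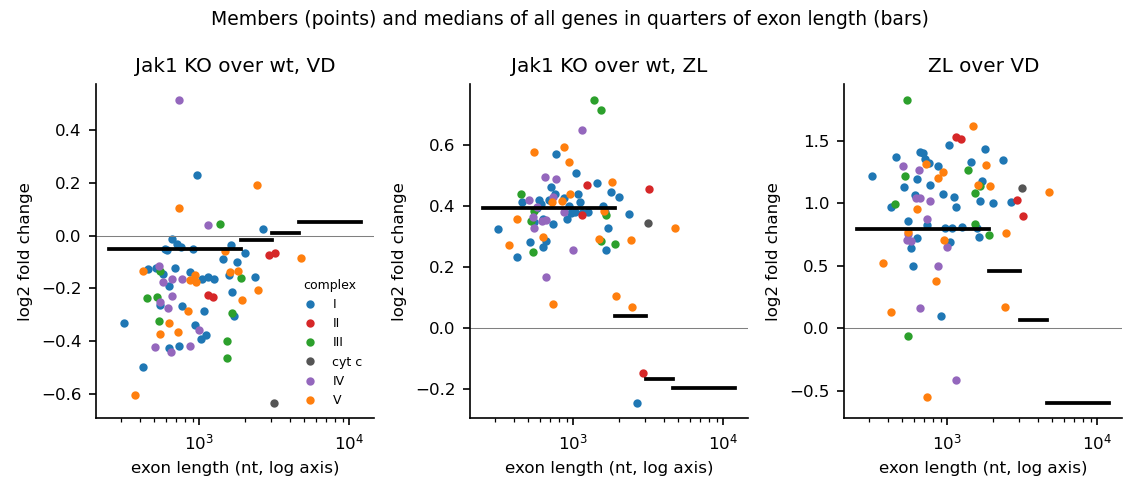
Log2 fold change of each member (points, coloured by complex) against exon length on a log axis, in 3 comparisons. Black bars are medians of all genes in 4 equal classes of exon length, drawn from the lower to the upper bound of each class within the axis. The shortest class lies at -0.05 in VD, 0.39 in ZL and 0.79 for ZL over VD.

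The largest differences among these genes were between the 2 series. In the fit of all 12 libraries 66 of 79 rose in ZL over VD and none fell, where 35.4% of all genes were called higher and 24.5% lower. The median was 1.02, or 2.03-fold, against 0.20 for all genes, and that of all genes was 0.06 with DESeq2's size factors, under which 57 members were called higher and 1 lower. For 42 members every ZL library lay above every VD library, against 22.6% of all genes, and for 0 every ZL library lay below, against 15.8%. By complex the called genes were 33 of 35 in I, 4 of 4 in II, 8 of 9 in III, 9 of 13 in IV and 11 of 17 in V, and Cycs. Complex II had the largest median (1.27), followed by III (1.09), I (1.05), V (0.96) and IV (0.76).

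The largest rise was that of Uqcrb, the ubiquinone-binding small subunit of complex III, at 22.1, 22.9 and 28.7 CPM in wt and 21.8, 20.2 and 15.3 CPM in Jak1 KO of VD, and 62.9, 88.4 and 61.3 and 123, 81.9 and 46.4 CPM in ZL (1.83 on the log2 scale, SE 0.24, adjusted p = 2.14e-05 by edgeR). The lowest ZL library lay above the highest VD library. Uqcrb had 3 near-identical pseudogene copies, and their part in this rise was not tested. Atp5s (1.62, SE 0.19) and Sdhb (1.53, SE 0.22) came next, also without overlap. At the other end stood Atp5g2 (-0.55, SE 0.25), Cox7a2l (-0.41, SE 0.23) and Uqcrh (-0.06, SE 0.23), none of which passed in this fit. Cox7a2l was at 162, 155 and 149.7 CPM in wt 1 to 3 and 158, 139 and 171 CPM in Jak1 KO 1 to 3, and at 79.3, 115 and 86.8 CPM in wt 4 to 6 and 235, 116 and 87.9 CPM in Jak1 KO 4 to 6. All ZL libraries but Jak1 KO 4 lay below all of VD, and without Jak1 KO 4 the log2 fold change passed for this gene (-0.81, edgeR adjusted p = 0.000236), for Atp5g2 (-0.79, adjusted p = 0.0145) and for Uqcrh (-0.43, adjusted p = 0.0384). With the offset for exon length 46 members were called higher and 8 lower, with a median of 0.39. Among those lower were Cox7a2l (-1.18, edgeR adjusted p = 3.36e-07), Uqcrh (-0.76, adjusted p = 1.07e-05) and the scarce Atp5g2 (-1.19, adjusted p = 0.00169). With limma-voom Cox7a2l (adjusted p = 0.00079) and Atp5g2 (0.0306) passed and Uqcrh (0.607) did not. With DESeq2's Wald test only Atp5g2 did (adjusted p = 0.0115). Depth, Rn45s and the granulocyte markers differed between the series as given above, and their part in these differences was not tested.

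Genes that work beside the respiratory chain were taken as lists, each described by counts. In VD, 29 of 38 assembly factors, 60 of 76 genes of the mitochondrial ribosome and 12 of 14 genes of the tricarboxylic acid cycle had fold changes below 0, with medians of -0.12, -0.13 and -0.16, and none passed (1.08% of all genes did in either direction). Of 15 glycolysis genes 9 were below 0, with a median of -0.04. Ldha, the lactate dehydrogenase subunit that favours pyruvate reduction, stood at 615.8 ± 16.4 CPM in wt and fell to 454 ± 33.9 CPM in Jak1 KO on the scale of all 12 libraries (-0.40 on the log2 scale, SE 0.09, adjusted p = 0.0378 by edgeR). Its counterpart Ldhb stood at 40.1 ± 6.20 and 59.7 ± 4.596 CPM on that scale (0.61, SE 0.14, adjusted p = 0.058) and did not pass. The cytosolic ribosome, with genes as short as the members (median 900.5 nt), had a median of -0.03 in VD and 57 of 92 below 0.

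Over all libraries none of these lists had a called gene. In ZL the fold changes were above 0 for 31 of 38 assembly factors, 73 of 76 mitochondrial and 83 of 92 cytosolic ribosomal genes, and for 8 of 14 genes of the tricarboxylic acid cycle, whose median exon length was 2473.5 nt. Regulators of mitochondrial gene expression, with long exons (median 4987 nt), had 10 of 15 fold changes below 0 in VD (median -0.10) and 9 of 15 in ZL (median -0.16). The smallest p among them over all libraries belonged to Ssbp1, the mitochondrial single-stranded DNA binding protein (0.46, SE 0.23), and to Ppargc1b, a coactivator of mitochondrial biogenesis (-0.59, SE 0.31), neither past the threshold. Between the series, 69 of 76 mitochondrial ribosomal genes, 30 of 38 assembly factors and 10 of 14 tricarboxylic acid cycle genes rose in ZL over VD, where 35.4% of all genes were called higher and 24.5% lower. Of these lists only the assembly factors had genes called lower, 2 of 38. Glycolysis had 8 of 15 genes called higher and 2 lower, and the regulators 4 and 3 of 15. Cytosolic ribosomal genes took the other direction, with 42 of 92 called lower, 11 higher and a median of -0.51 against 1.02 for the respiratory chain.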

How the data were processed

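LT-HSC RNA of 12 libraries was sequenced from poly-A selected RNA. The deposited values are read counts per gene that the authors made with STAR 2.3.0e and featureCounts of the Subread package on mm10, per the submitters' processing notes, and strand use is not stated. No column was left unmapped. From these counts, 13184 of 23472 genes passed edgeR's filterByExpr and were tested with edgeR 4.0.16 (TMM scaling, quasi-likelihood F test, Benjamini-Hochberg adjustment, threshold 0.05) in R 4.3.3. Genotype was fitted over all 12 libraries with name series as a covariate, within VD and ZL alone, and as an interaction. CPM of members given for a genotype comparison within VD or ZL use that series' own scaling, and other CPM the scaling of all 12 libraries. Exon lengths come from the reference annotation (13067 genes).

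DESeq2 1.42.0, limma 3.58.1 (voom), other scaling and filters, a replicate block, an offset for exon length (lowess span 0.5) and left-out libraries were alternatives. On simulated counts for 13184 genes, edgeR over all libraries recovered 57% of genes changed by 1 (log2) and 89% of those changed by 2. The shares were 8% and 74% in VD and 1% and 58% in ZL. The simulation gave each gene 1 spread shared by both series. In the real libraries the median SD of log2 CPM over all genes was 0.17 (wt) and 0.20 (Jak1 KO) in VD. In ZL it was 0.33 and 0.54. The simulated shares for VD and for ZL therefore do not show what the test could recover in either series. Depth was 8989965 to 28701855 counts per library. No pair of replicates agreed within sampling noise (lowest chi-square per degree of freedom 14.1).

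Genes were named by rule: those past the threshold, the 3 smallest genotype p-values in each complex, the highest and lowest level per kb, fixed core subunits and isoform groups, the 3 smallest interaction p-values and the 3 largest differences between series in each direction, and in the other lists those past the threshold or the 2 smallest p-values. Further names are said to be chosen later. The members and lists were chosen with earlier results of these data known. Some genes are not reported here.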

Additional observations from a re-analysis of the deposited data

Results flagged for a closer look

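Of 84 groups of 6 libraries checked for a single library far from the other 5, 4 passed Dixon's 95% critical value, as chance alone gives for about 1 in 20 groups. Of these, 3 involved Jak1 KO 4. Sdhc stood at 275.2 CPM in Jak1 KO 4 against 71.1 to 127 CPM in the other Jak1 KO libraries. Cox6b2 stood at 54.7 CPM there against 17.4 to 30.8 CPM, and Atp5sl at 74 CPM against 39.5 to 46.2 CPM. In the wt group, Atp5k stood at 37.2 CPM in wt 5 against 24.5 to 29.2 CPM in the other 5 libraries.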

How the results depend on the processing

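Of 1282 recomputed values over 71 results, 1176 were counted as kept. Fold changes of genes had to keep their direction and their side of the threshold. Counts of members had to stay within a set factor, and medians of complexes to move by less than the spread between libraries. A median could thus change sign and still count as kept. Over all libraries complex I went from 0.10 to -0.13 with limma-voom, within a spread of 0.38. The number of members called in VD was 0 with DESeq2's size factors, 3 with no filter, 5 with DESeq2's Wald test, 8 with limma-voom, 0 with the exon length offset, 0 as a contrast in the fit of 4 groups and 0 to 4 with 1 library left out. The number without overlap in VD was 26 to 51 with 1 library left out (51 without Jak1 KO 2) and 29 with the scaling of all 12 libraries, an alternative added after seeing the data. The replicate block gave 4 calls in VD, Atp5b among them (adjusted p = 0.0299 by edgeR), and 0 over all libraries. Same-numbered libraries correlated from 0.043 to 0.668, not each best with its own number, so the numbers were not taken as pairs; the block with a series term could not be estimated. The complex II median in ZL was 0.0369 with limma-voom, 0.0088 with the length offset, 0.023 with 3 ZL libraries left out, -0.0494 without Jak1 KO 4 plus the offset, and -0.0424 to 0.636 with 1 library left out. In VD the offset gave -0.137 for complex III and -0.0988 for complex V, and leaving out 1 library gave -0.352 to -0.167 and -0.271 to -0.155. The cause of these shifts was not tested.

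Genotype fold changes over all libraries turned below 0 with limma-voom for Ndufb4 (-0.0508), Ndufb9 (-0.0951), Sdhc (-0.0503), Sdhd (-0.163), Uqcrh (-0.158), Cyc1 (-0.293), Cox4i1 (-0.154) and Atp5d (-0.0929). With the length offset they did so for Sdhd (-0.0574), Uqcrh (-0.0635), Cyc1 (-0.0259) and Cox4i1 (-0.0344). With 3 ZL libraries left out, which leaves 1 Jak1 KO library there that is assumed to vary like the others, the values were -0.0392 for Sdhc, -0.0875 for Sdhd, -0.0486 for Uqcrh, -0.226 for Cyc1, -0.0601 for Cox4i1 and -0.0134 for Atp5d. Without Jak1 KO 4 and with the offset, chosen after seeing the data, they were -0.078, -0.0986, -0.0449, -0.151, -0.0534 and -0.0293 for the same genes. Cycs was 0.0254 with no series term, and Ndufs1 in VD was -0.0506 with limma-voom and -0.0117 in the fit of 4 groups. With 1 library left out the ranges were -0.0324 to 0.302 for Ndufb9, -0.0595 to 0.25 for Sdhc, -0.119 to 0.18 for Sdhd, -0.112 to 0.211 for Uqcrh, -0.166 to 0.22 for Cyc1, -0.104 to 0.241 for Cox4i1, -0.0644 to 0.276 for Atp5d, -0.235 to 0.0469 for Cycs, -0.0462 to 0.335 for Jak1, -0.134 to 0.109 for Ndufs1 in VD and -0.431 to 0.0475 for Uqcrh between the series. Members such as Cycs and Cox4i2 are limited by their few counts. For Cycs, with 3 near-identical pseudogene copies, reads may also have been split or lost.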
